A study of Mus musculus with 6 samples.

Results

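The genes described here move calcium into, out of and across the endoplasmic reticulum (ER) and the cell membrane. They are the IP3 receptors Itpr1, Itpr2 and Itpr3, the calcium pumps Atp2a2, Atp2b1 and Atp2b4, the ER calcium sensors Stim1 and Stim2, and the membrane calcium channels Orai1 and Orai3. They were chosen by name, as the rows of the deposited table that carry one of these symbols, and all 10 were found among its 20624 genes. RNA was sequenced from mDCT15 cells, a mouse line labelled as distal convoluted tubule, after removal of ribosomal RNA. The series has 3 samples of Pkd1-/- cells, edited with CRISPR/Cas9, and 3 samples of wild type cells, with no treatment in either group. The sample titles give the edited cells as Pkd1-/-, whereas their genotype label calls them a knockdown, and the number of edited clones is not given in the sources used here. The titles number the samples as biological replicates.

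The level used throughout is the authors' mean normalized count of a gene over all 6 samples, in which the count of each library was divided by a size factor for its depth. It mixes the 2 genotypes and carries no SD. Levels in each sample were not analysed here. The depth of each library is therefore unknown, the spread between samples cannot be set beside the levels, and the difference between Pkd1-/- and wild type cells was not tested. For the same reason the level of Pkd1 in each sample, which would check the genotype labels, is not given. Unless another scale is named, levels of different genes are compared per kilobase of merged exons. These are all bases that lie in an exon of any annotated transcript of the gene. The exons come from a later annotation than the one used for counting. They can therefore include bases where no read could be counted, which would lower a level on this scale. In bulk RNA, fewer cells that express a gene and less RNA per cell cannot be told apart.

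As background, receptors on the cell surface activate phospholipase C, which makes IP3, and IP3 opens its receptors in the ER membrane so that stored calcium flows into the cytosol. When the store empties, STIM proteins in the ER membrane sense the fall in luminal calcium and open ORAI channels in the plasma membrane, known as store-operated calcium entry, while SERCA pumps refill the store and plasma membrane pumps send calcium out of the cell. Polycystin-1, the product of Pkd1, and polycystin-2, a calcium-permeable channel found in cilia and in the ER that can bind IP3 receptors, are the proteins mutated in autosomal dominant polycystic kidney disease.

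The DNA just before the start sites was compared by its number of CG pairs. For each gene, the 250 bases upstream of the start of the canonical transcript were read from GRCm39 in the direction of the gene. In 4 of the 10 genes this window overlapped no annotated exon, and only these windows are shown, with every CG pair in capitals. They include the genes with the fewest CG pairs and the gene with the lowest level, so they are not typical of the 10. The windows are chr6:146403722-146403971 on the minus strand for Itpr2, chr5:123152793-123153042 on the plus strand for Orai1, chr7:127368732-127368981 on the plus strand for Orai3, and chr1:133728924-133729173 on the minus strand for Atp2b4.
Itpr2: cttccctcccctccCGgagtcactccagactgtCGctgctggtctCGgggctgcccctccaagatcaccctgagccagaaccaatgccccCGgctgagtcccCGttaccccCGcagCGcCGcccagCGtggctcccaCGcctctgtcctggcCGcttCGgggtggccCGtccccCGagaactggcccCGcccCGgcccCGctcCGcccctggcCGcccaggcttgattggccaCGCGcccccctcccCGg
Orai1: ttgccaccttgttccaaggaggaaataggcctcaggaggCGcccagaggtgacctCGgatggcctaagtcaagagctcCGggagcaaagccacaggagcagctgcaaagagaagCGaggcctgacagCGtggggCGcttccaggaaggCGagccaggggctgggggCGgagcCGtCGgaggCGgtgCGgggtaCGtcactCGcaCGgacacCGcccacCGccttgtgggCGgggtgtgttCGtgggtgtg
Orai3: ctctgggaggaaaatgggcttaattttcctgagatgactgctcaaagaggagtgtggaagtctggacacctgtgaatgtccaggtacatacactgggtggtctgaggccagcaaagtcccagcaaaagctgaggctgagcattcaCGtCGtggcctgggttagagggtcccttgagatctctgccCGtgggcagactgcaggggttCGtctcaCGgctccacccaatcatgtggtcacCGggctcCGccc
Atp2b4: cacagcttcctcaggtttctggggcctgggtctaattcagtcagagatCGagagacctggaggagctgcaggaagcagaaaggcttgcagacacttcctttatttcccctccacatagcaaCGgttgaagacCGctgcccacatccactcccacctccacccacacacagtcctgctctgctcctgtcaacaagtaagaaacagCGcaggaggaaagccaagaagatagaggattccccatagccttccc
Itpr2 had 22 CG pairs and 74.4% GC, and Orai1 had 19 CG pairs and 66.4% GC. Orai3 had 7 CG pairs with 56.8% GC, and Atp2b4 had 4 CG pairs with 54.0% GC. The median over the windows of 13862 protein-coding genes was 12 CG pairs and 56.4% GC, so Orai3 and Atp2b4 lay under the median number of CG pairs and the other 8 genes above it.

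The 10 genes differed 325-fold in level per kilobase. Atp2a2, the SERCA pump that fills the ER store in most cells, had the highest level, at 665 per kilobase. It was followed by Stim2 at 244, Itpr3 at 241, Atp2b1 at 145, Orai1 at 120.3, Stim1 at 109, Itpr1 at 83.5, Orai3 at 81.9 and Itpr2 at 38.5 per kilobase. Atp2b4, a plasma membrane pump, stood apart at 2.04 per kilobase, and without it the range of the other genes was 17.3-fold. The median of the 10 genes was 114 per kilobase, beside 28.6 per kilobase over all 20122 genes with an annotated length and 72.7 per kilobase over the protein-coding genes among them, and 9 of the 10 lay above the median of all genes. Among protein-coding genes only, or among genes whose mean was 10 or more, Itpr2 fell below the median as Atp2b4 did, which left 8 of the 10 above it. A mean of at least 100 normalized counts was reached by 9 of the 10 genes, against 50.3% of all genes. These counts are not divided by length, which favours long genes, and all genes include those that do not code for protein. Neighbours in this order such as Stim2 and Itpr3, with a ratio of Itpr3 to Stim2 of 0.991, or Itpr1 and Orai3 cannot be ranked against a spread between samples.

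**Figure D1:**
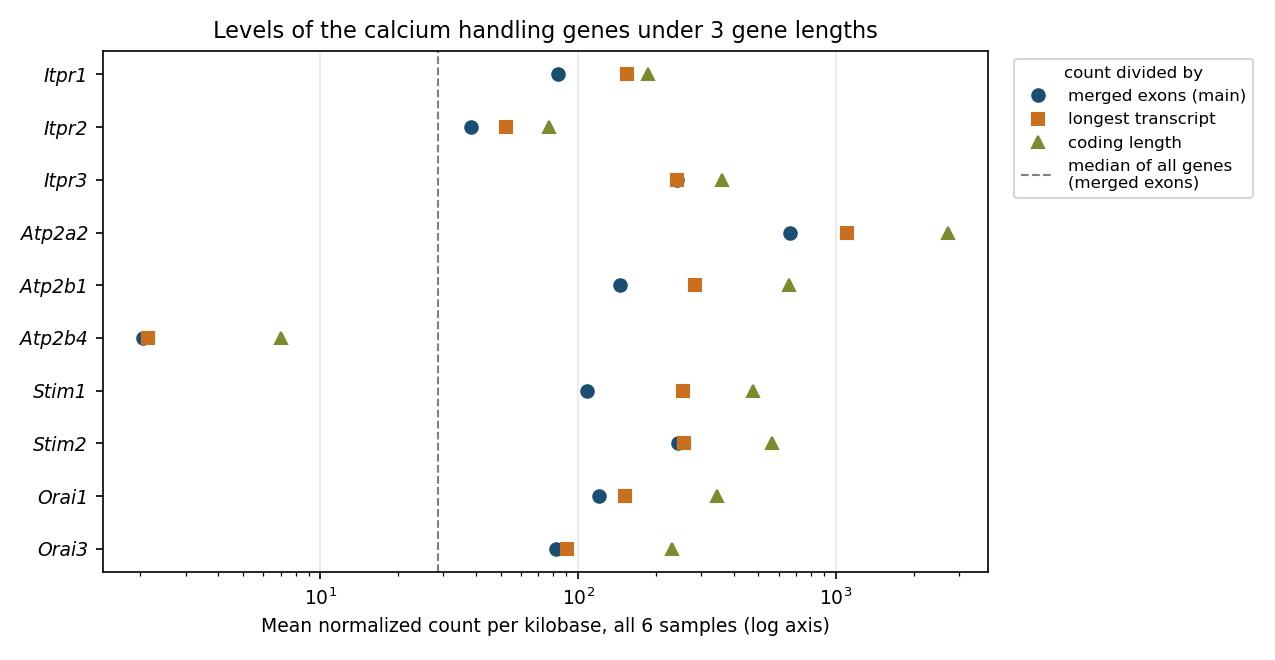
Mean normalized count over all 6 samples, as the authors give it, per kilobase of merged exons (circles), of the longest transcript (squares) or of coding sequence (triangles), on a log axis. Atp2a2 is highest and Atp2b4 lowest under each length, and the dashed line marks the median of all genes at 28.6 per kilobase of merged exons.

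The plot of levels under 3 gene lengths shows that the top and the bottom of the order did not depend on the length used. Atp2a2 was highest and Atp2b4 lowest by merged exons, by the longest transcript and by coding length. The places in between did move, because exon annotation differs widely among these genes. Atp2b1, for example, was at place 4 by merged exons and at place 2, ahead of Stim2, by both other lengths. Stim1 has 10.4 kb of merged exons but a longest transcript of 4.44 kb, whereas for Stim2 both are close, at 5.20 and 4.93 kb. Itpr1, with 18.3 kb of merged exons against 9.88 kb in its longest transcript, and Atp2b1, with 16.6 against 8.51 kb, also have much annotated exon sequence outside the longest transcript.

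Among the IP3 receptors, the ER channels that release stored calcium, Itpr3 led. Itpr3 (ENSMUSG00000042644, chr17:27275971-27343866, plus strand) had a mean normalized count of 2896, Itpr1 (ENSMUSG00000030102, chr6:108190048-108528070, plus strand) of 1531 and Itpr2 (ENSMUSG00000030287, chr6:146009797-146403721, minus strand) of 622. Per kilobase of merged exons, the level of Itpr3 was 2.89 times that of Itpr1 and 6.27 times that of Itpr2. Itpr3 made up 66.4% of the summed level of the 3 receptors per kilobase, Itpr1 23.0% and Itpr2 10.6%. This order held under the longest transcript, the coding length and no division by length, where the share of Itpr3 lay between 53.8% and 57.9%. The 3 coding sequences are close in length, at 8.24 kb for Itpr1, 8.10 kb for Itpr2 and 8.01 kb for Itpr3, so that coding length and undivided counts gave nearly the same shares. In the genes ranked by level per kilobase, Itpr3 lay above 86.4% of all genes, Itpr1 above 66.6% and Itpr2 above 53.8%, but Itpr2 lay above only 36.7% of protein-coding genes. The related ryanodine receptors, which release calcium from the sarcoplasmic reticulum of muscle, were low or missing. Ryr1 had a level of 2.37 per kilobase, and Ryr2 and Ryr3 had no row among the genes analysed here.

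The pumps that refill the ER store were represented almost entirely by Atp2a2. Atp2a2 (ENSMUSG00000029467, chr5:122591575-122640903, minus strand) had a mean normalized count of 8140.4, which was 43.9% of the summed counts of the 10 genes, and its level per kilobase exceeded that of 96.5% of all genes. Its SERCA paralogues were low, above 17.5% of all genes for Atp2a1 and 18.4% for Atp2a3. Atp2a1, known from fast skeletal muscle, had a level of 1.66 per kilobase and Atp2a3 of 1.80 per kilobase, against 665 for Atp2a2. Atp2a2 thus made up 99.5% of the summed SERCA level, and between 99.6% and 99.7% under the other lengths. Set beside the release channels, Atp2a2 had 1.83 times the summed level of the 3 IP3 receptors per kilobase of merged exons, 2.45 times by the longest transcript, 4.36 times by coding length and 1.61 times with undivided counts. The Golgi and secretory pathway pump Atp2c1 had a level of 84.9 per kilobase, and Atp2c2 of 0.557.

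On the opposite strand, exons of the gene model Gm43361 share 3206 bases, 26.2%, with the merged exons of Atp2a2, those of Gm57291 share 396 bases and those of Anapc7 share 112 bases. Gm43361 had a mean normalized count of 0.819 and Anapc7 one of 1239. The paper names the library kit, KAPA RNA HyperPrep with RiboErase, and counting at default parameters. How the strand setting of the counting relates to that kit is not stated. This bears on every count, and those over exons that genes of opposite strands share are uncertain. In 58 pairs over the whole table in which over 80% of the exon bases of a gene longer than 300 bases lay under exons of an opposite-strand gene with over 100 per kilobase, the median ratio of the covered gene to the covering gene was 0.0126. The ratio was under 0.1 in 44 of these pairs and above 1 in 5. Because the covering genes were chosen for a high level, a ratio under 1 is expected from the choice alone, and the strand setting was not tested. On the same strand, the annotation shares only 6 bases of Atp2b4 and 1 base of Itpr3 with other genes, both with microRNA genes. Itpr3 also shares 444 bases with exons of Uqcc2, which had a mean normalized count of 689, on the opposite strand. Opposite-strand overlaps with a single gene reached 181 bases in Itpr1, 171 in Itpr2 and 86 in Orai1.

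The plasma membrane pumps, which send calcium out of the cell, showed the widest gap between genes of one family among the 10 genes. Atp2b1 (ENSMUSG00000019943, chr10:98750268-98862488, plus strand) reached a mean normalized count of 2408, or 145 per kilobase. Atp2b4 (ENSMUSG00000026463, chr1:133627195-133728923, minus strand) reached 25.3, or 2.04 per kilobase. The ratio of Atp2b1 to Atp2b4 was 71.0 per kilobase of merged exons, and between 93.8 and 133 under the other lengths. Atp2b1 accounted for 98.4% of the family and Atp2b4 for 1.39%, while Atp2b3 had a level of 0.300 per kilobase and Atp2b2 had no row among the genes analysed here. Atp2b1 lay above 77.3% of all genes and Atp2b4 above 19.8%. Sodium calcium exchange is the other main route out of a cell. Apart from the mitochondrial exchanger Slc8b1, the listed exchangers with a row lay under the median of all genes. Of 9 listed exchangers 5 had a row, with a median of 1.75 per kilobase. The highest were the mitochondrial exchanger Slc8b1 at 42.8, Slc24a3 at 7.19 and Slc8a2 at 1.75 per kilobase, and Slc8a1, Slc24a1, Slc24a4 and Slc24a5 had no row.

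Both ER calcium sensors were present. Stim1 (ENSMUSG00000030987, chr7:101916979-102086526, plus strand), which opens ORAI channels once the store is depleted, had a mean normalized count of 1129. Stim2 (ENSMUSG00000039156, chr5:54155778-54278399, plus strand), which responds to smaller falls in luminal calcium, had one of 1265. How far the sensors differed per length rested on the annotation. Per kilobase of merged exons Stim2 was 2.24 times Stim1, by coding length 1.19 times and by the longest transcript 1.01 times. Stim2 was the higher of the pair under each of these lengths, but its share of the summed STIM level ranged from 69.2% with merged exons to 50.2% with the longest transcript.

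In the ORAI family, the pore-forming channels of store-operated entry, the order itself changed with the length. Orai1 (ENSMUSG00000049686, chr5:123153043-123168535, plus strand) had a mean normalized count of 315 and Orai3 (ENSMUSG00000043964, chr7:127368982-127374330, plus strand) of 200.5. Orai1 was 1.47 times Orai3 per kilobase of merged exons and 1.50 times by coding length. Their paralogue Orai2 had a mean normalized count of 365, or 48.8 per kilobase of merged exons, the lowest of the family. By coding length, however, Orai2 reached 486 per kilobase, 1.41 times Orai1, which made it the highest. Orai2 has 7.47 kb of merged exons, of which 0.750 kb is coding, and 28.5% of the 42-base windows of its exons occur more than once in the genome. In Orai1 and Orai3 no such window repeats, so reads of this length can be placed uniquely in both. In the other 8 genes of the set, 0.0127% (Itpr1) to 3.75% (Atp2b1) of the windows repeat. The summed STIM level was 1.40 times the summed ORAI level per kilobase of merged exons, 1.58 times by the longest transcript, 2.72 times with undivided counts and 0.979 times by coding length.

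**Figure D2:**
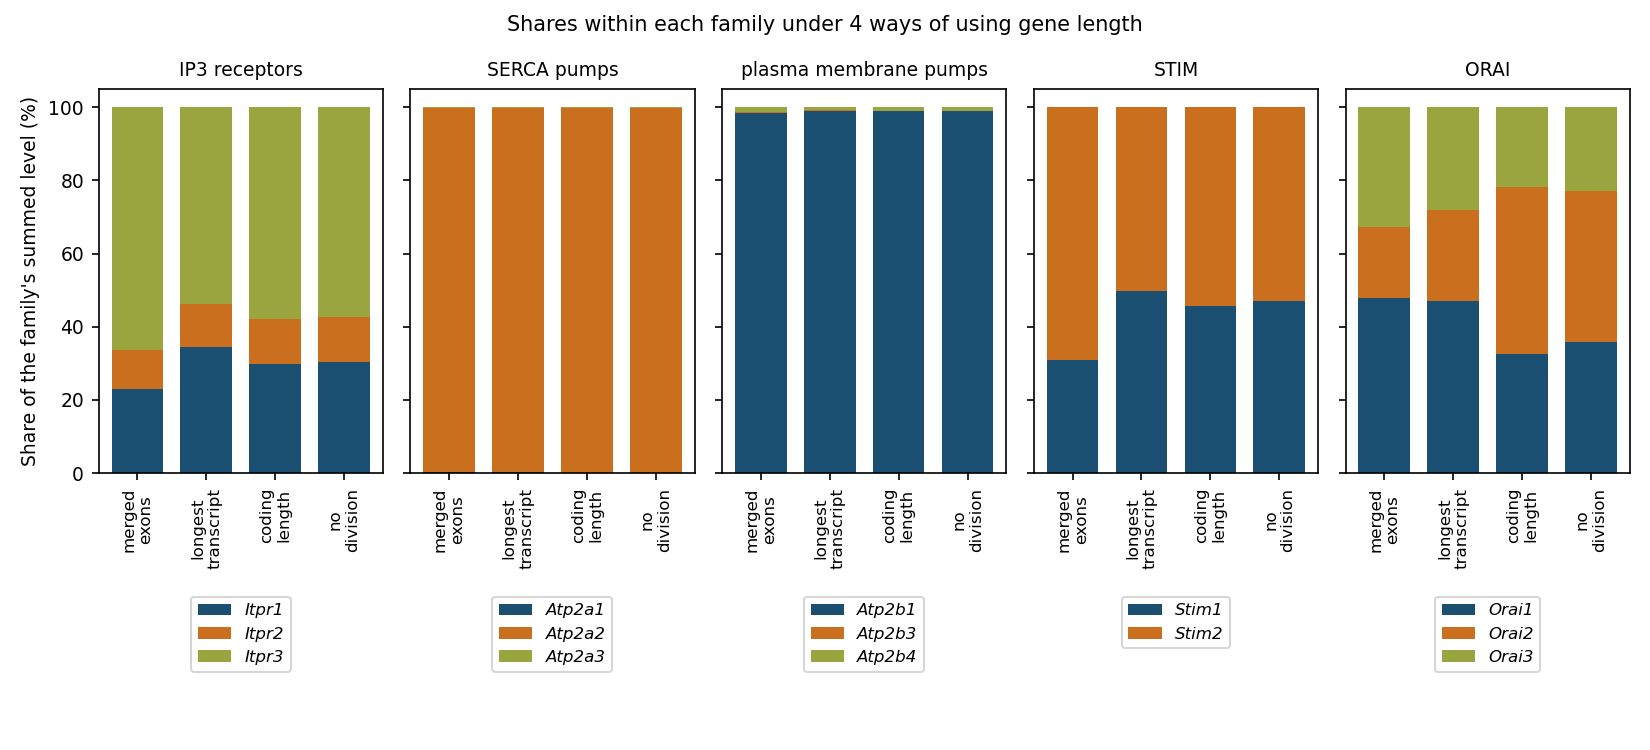
Share of each gene in the summed level of its family, in percent, when the mean normalized count is divided by merged exons, the longest transcript or coding length, or not divided. Atp2a2 and Atp2b1 fill nearly all of their families and Itpr3 leads the IP3 receptors in each bar, whereas the STIM shares and the leading ORAI gene change with the length.

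The plot of family shares sets these 5 families side by side. In 4 of them the leading gene was the same under all 4 treatments of length, namely Itpr3, Atp2a2, Atp2b1 and Stim2, although the lead of Stim2 was narrow except with merged exons. In the ORAI family the leading gene was Orai1 with merged exons or the longest transcript and Orai2 with coding length or undivided counts.

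The phospholipase C family and the enzymes that remove IP3 covered a wide range of levels. Of 20 listed, 19 had a row and 14 reached a mean of at least 100, with a median of 69.6 per kilobase beside 28.6 over all genes and 72.7 over protein-coding genes. The highest were the phospholipases Plcg1 at 299 and Plcb3 at 249 per kilobase and the phosphatase Inpp5b at 199.9. Plcd4 and Plch2 were at 0.228 and 0.191 per kilobase, Plcl2, a relative without catalytic activity, was at 0.238, and Plcb2 had no row. Among 23 listed regulators of the IP3 receptors, 19 had a row, with a median of 136 per kilobase. They were led by the ER protein folding enzyme Pdia3 at 1724, the ER membrane protein Tmbim6 at 1499 and the BCL2 family member Mcl1 at 1279 per kilobase, while Irag2, Itprid1, Tespa1 and Itprip had no row. Ahcyl1, which encodes the IP3 receptor binding protein IRBIT, had a level of 517 per kilobase, 2.14 times that of Itpr3.

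For STIM and ORAI, 18 of 20 listed regulators had a row and their median was 60.4 per kilobase. Surf4 at 741, the ER to plasma membrane tether Esyt1 at 592 and Cav1 at 472 per kilobase were the highest, and Jph1 and Jph3 had no row. Saraf, which promotes slow inactivation of store-operated entry, had a level of 364 per kilobase and Stimate one of 110.3, whereas Cracr2a had one of 0.125. Small membrane proteins that bind SERCA pumps were few. Of 6 listed, only Arln, at 931 per kilobase, and Mrln, at 1.19, had a row, and Pln, Sln, Strit1 and Smim6 had none.

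The calcium-binding proteins listed as ER luminal had a higher median than the channels and pumps but a wide range. The list also holds Sdf4 and Nucb1, known from the Golgi, at 273 and 227 per kilobase, and its median falls between these values. All 18 listed genes had a row, with a median of 250.1 per kilobase beside 114 for the 10 genes. Calr, which encodes the main luminal calcium buffer calreticulin, had a level of 5244 per kilobase, 7.88 times that of Atp2a2, followed by the chaperones Hsp90b1 at 2930.1 and Hspa5 at 2625 per kilobase. At the other end, the muscle calcium buffers Casq1 and Casq2 were at 1.74 and 0.383, Clgn at 7.37 and Calr3 at 19.5 per kilobase. Proteins reported to let calcium leak from the ER had a median of 134 per kilobase over 9 genes, led by Tmbim6, the translocon subunit Sec61a1 at 695 and Tmco1 at 217 per kilobase.

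**Figure D3:**
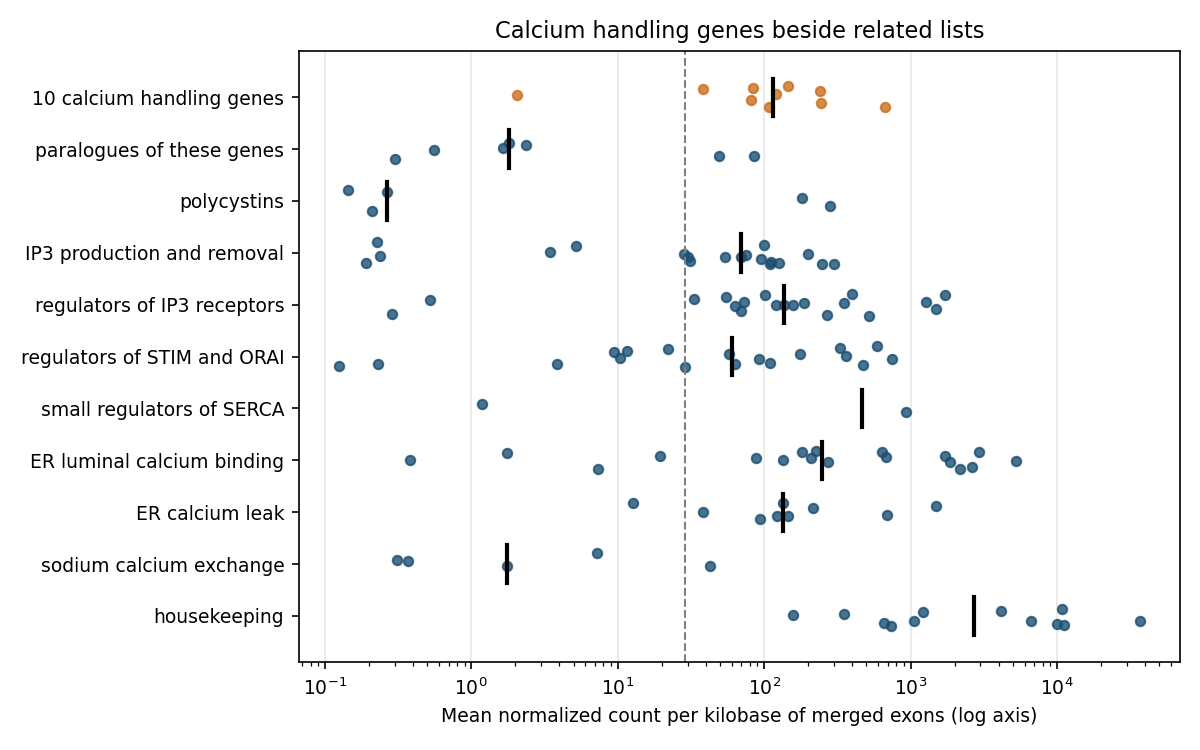
Mean normalized count per kilobase of merged exons, on a log axis, for each gene with a row (points, spread vertically by chance for legibility) of the 10 calcium handling genes, related lists and housekeeping genes. Black bars are list medians, 114 for the 10 genes, and the dashed line is the median of all genes at 28.6.

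In the plot of calcium handling genes beside related lists, the median of the 10 genes lies under those of the IP3 receptor regulators, the ER leak proteins and the ER luminal proteins. The median of the 10 genes lies above those of the phospholipase C family with the enzymes that remove IP3 and of the regulators of STIM and ORAI. It also lies above that of their own paralogues, which was 1.80 per kilobase over 7 genes with a row. The housekeeping genes had a median of 2690.5 per kilobase and were led by Actb at 36707, Eef2 at 11135 and Eef1a1 at 10774 per kilobase.

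Both genes of the polycystin complex were present at levels within the range of the calcium handling genes. The mean normalized count was 4723 for Pkd2, or 282 per kilobase, and 3175 for Pkd1, or 182 per kilobase, over edited and wild type samples together. Per kilobase, Atp2a2 was 2.36 times Pkd2, Stim2 was 0.865 times and Itpr3 was 0.857 times Pkd2. Of the other 6 listed polycystins, Pkd2l1 was at 0.267, Pkd1l3 at 0.209 and Pkd2l2 at 0.143 per kilobase, and Pkd1l1, Pkd1l2 and Pkdrej had no row.

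The genes with more CG pairs before their start site had, in the main, the higher levels. Atp2a2 had 46 CG pairs in its 250 bases, and 99.8% of the protein-coding windows had fewer. That window lies wholly inside annotated exons of other Atp2a2 transcripts, as that of Itpr3 does inside Itpr3 exons, and that of Itpr1 lies wholly inside exons of another gene. Atp2b4 had 4, with 12.6% of windows lower, and Orai3 had 7, with 26.0% lower. The other counts were 33 in Atp2b1, 29 in Stim1, 28 in Stim2, 25 in Itpr3, 22 in Itpr2, 19 in Orai1 and 18 in Itpr1. Across the 10 genes Spearman's rho between CG pairs and level per kilobase was 0.78, and across 13862 protein-coding genes it was 0.34. Both are correlations across genes in the same mean values, and genes are not independent replicates. When all protein-coding genes were split by CG pairs into 4 groups of equal size, the median level was 12.5 per kilobase in the lowest group, then 69.6, 98.0 and 117 per kilobase.

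**Figure D4:**
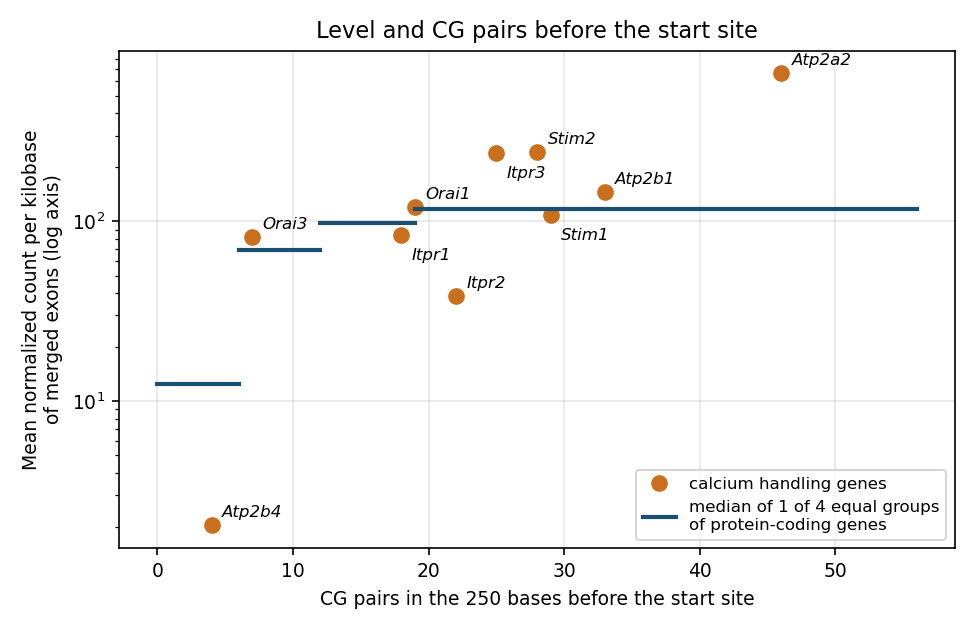
Number of CG pairs in the 250 bases before the start site against the mean normalized count per kilobase of merged exons on a log axis, for the 10 calcium handling genes (points). Lines give the median level of each of 4 equal groups of 13862 protein-coding genes over its range of CG pairs, and Atp2b4, with 4 CG pairs, lies under the line of its group at 12.5 per kilobase.

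In the plot of level against CG pairs, Atp2b4, Itpr2, Itpr1 and Stim1 lie under the median of their group of protein-coding genes, and Atp2a2, Stim2, Itpr3, Atp2b1, Orai1 and Orai3 lie above it. Letter motifs were sought in the same windows on both strands. GGGCGG, the core of the GC box, was in 8 of the 10 windows and in 48.4% of all windows. CCAAT was in 4 of the 10, Itpr2, Atp2b1, Stim2 and Orai3, and in 36.3% of all. TATAAA was in 0 of the 10 and in 7.46% of all. The ER stress response element, read as CCAAT and CCACG with 9 bases between them and thus overlapping the CCAAT count, was in 0 of the 10 and in 15 (0.108%) of all windows.

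Genes of the set also share chromosomes. Atp2a2 and Orai1 lie 0.512 Mb apart on chromosome 5, which also carries Stim2, Orai2 and Pkd2. Stim1 and Orai3 lie 25.3 Mb apart on chromosome 7, Itpr1 and Itpr2 37.5 Mb apart on chromosome 6, and Itpr3 lies 2.46 Mb from Pkd1 on chromosome 17.

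The cell type label was set against marker genes. Of 19 markers of the distal convoluted tubule, 9 had a row and 4 reached a mean of at least 100. The defining sodium chloride cotransporter Slc12a3 had no row, nor did Pvalb, Calb1, Trpv5, S100g, Slc8a1, Fxyd2, Emx1, Tfap2b and Sall3. The highest of those present were Wnk1 at 359, Wnk4 at 94.5 and Kcnj16 at 78.0 per kilobase. The summed mean count of the list was 10054, of which Wnk1 alone gave 8468. Wnk1, and Stk39 at 57.9 per kilobase, are expressed in many tissues, so their levels do not by themselves mark this segment. General kidney epithelial genes were better represented, with 7 of 10 in the table, led by Cdh16 at 1125, Pax8 at 679 and Pax2 at 373 per kilobase, but Krt8 was at 0.501 per kilobase, and Cdh1, Krt18 and Krt19 had no row. Of 16 markers of other nephron segments 7 had a row, with a summed mean count of 20357, of which Aqp1 gave 11355 and Lrp2 8826. Aqp1, at 3815, and Lrp2, at 528 per kilobase, both known from the proximal tubule, were the most abundant, followed by Cubn at 11.3. The proximal tubule transporters Slc5a2 and Slc34a1 were at 0.958 and 0.322 per kilobase, and Slc22a6, Umod, Slc12a1, Cldn16, Aqp2, Scnn1b, Slc4a1, Slc26a4 and Foxi1 had no row. Most fibroblast, endothelial and immune markers were low, although Cd68 and Col1a1 lay above the median of all genes. Of 18, 12 had a row, with a median of 0.465 per kilobase and a summed mean count of 277, led by Cd68 at 30.6, Col1a1 at 30.5 and Lyz2 at 0.773 per kilobase, and Lum, Cdh5, Kdr, Emcn, Cd3e and Adgre1 had no row. The part of these marker levels in the levels of the calcium genes was not tested.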

How the data were processed

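RNA was sequenced in 3 Pkd1-/- and 3 wild type samples as paired reads of 42 bases. The authors used Trim Galore 0.4.5 for trimming, STAR 2.7.5a for mapping to GRCm39 (Ensembl release 105 annotation), HTSeq-count 0.11.0 at default parameters for counting, and DESeq2 1.22.0 in R 3.5.3 for normalization and their comparison. The deposited signal used here is the authors' mean normalized count per gene over all samples. The stated cutoff was at least 5 counts for a gene in each sample, yet 5385 genes (26.1%) have a mean under 5. The other columns hold the authors' own comparison of the genotypes (log2 fold change, its standard error, test statistic, p-value and adjusted p-value) and were not used. Levels in each sample were not analysed here, and the planned test of the genotypes, with its alternatives, was not run. The column of means was the only one used, and it holds no value for a single sample.

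Gene lengths, positions and start sites came from GENCODE M39 on GRCm39, a later annotation than the authors', in which 20122 (97.6%) of the identifiers were found. Coding length was that of the canonical transcript, since reference proteins were not used here. A percentile is the percent of genes with a lower level. Exons were intersected with bedtools 2.31.1, and values were computed in Python 3.11.15 with numpy 2.4.6, pandas 2.3.3, scipy 1.17.1, numba 0.67.0 and matplotlib 3.10.9. The percentile step was tested on simulated data. No test was made, since a mean over all samples has no replicates. The calcium genes and all lists were chosen with earlier results of these data known. All 10 calcium genes are named, and from each list first the 3 highest per kilobase and those with no row. Genes outside the lists (Gm43361, Gm57291, Anapc7, Uqcc2, Gm26917 and Gm42418) were chosen after their values were seen, as were the limits for pairs of opposite-strand genes. Of the listed symbols, 2 matched no gene model and were left out, and 3 others are not reported here and enter no count. The alternatives tried were other lengths, no division by length, and percentiles among genes whose mean was 10 or more or among protein-coding genes.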

Additional observations from a re-analysis of the deposited data

How the results depend on the processing

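No paired analysis was possible because levels in each sample were not analysed here. For the same reason the planned genotype difference was not run, nor were its alternatives (DESeq2, no filter, without each replicate, replicate block). A value was taken to hold when it stayed within the exact 95% binomial interval of the main value, with mean counts treated as counts. For levels, the interval was taken as symmetric about the main value. That interval covers counting error only and is narrow, and most values moved beyond it. All alternatives use the same counts, so the interval does not measure the effect of length. It is wider for genes with low counts, which therefore hold more easily.

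Per kilobase of the longest transcript, levels were 155 for Itpr1, 52.6 for Itpr2, 1104 for Atp2a2, 283 for Atp2b1, 254 for Stim1 and 152 for Orai1, and the other 4 genes held. Per kilobase of coding length, levels were 186 for Itpr1, 76.8 for Itpr2, 362 for Itpr3, 2719 for Atp2a2, 658 for Atp2b1, 7.01 for Atp2b4, 475 for Stim1, 565 for Stim2, 345 for Orai1 and 230.5 for Orai3. Undivided, the mean counts were 1531 for Itpr1, 622 for Itpr2, 2896 for Itpr3, 8140.4 for Atp2a2, 2408 for Atp2b1, 25.3 for Atp2b4, 1129 for Stim1, 1265 for Stim2, 315 for Orai1 and 200.5 for Orai3. Dividing by a shorter length raises a level by construction.

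Family shares with the longest transcript were 34.5% for Itpr1, 11.7% for Itpr2, 53.8% for Itpr3, 99.1% for Atp2b1, 0.748% for Atp2b4, 49.8% for Stim1, 50.2% for Stim2 and 28.1% for Orai3, and those of Atp2a2 and Orai1 held. With coding length they were 29.8% for Itpr1, 12.3% for Itpr2, 57.9% for Itpr3, 99.7% for Atp2a2, 98.9% for Atp2b1, 45.6% for Stim1, 54.4% for Stim2, 32.5% for Orai1 and 21.7% for Orai3. With undivided counts they were 30.3% for Itpr1, 12.3% for Itpr2, 57.4% for Itpr3, 99.7% for Atp2a2, 98.9% for Atp2b1, 47.2% for Stim1, 52.8% for Stim2, 35.8% for Orai1 and 22.8% for Orai3. The share of Atp2b4 held with both. The shifts between the 3 lengths come from how much of each gene's annotated exon sequence is coding or lies in one transcript.

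Among the 13611 genes whose mean was 10 or more, percentiles were 50.8 for Itpr1, 32.5 for Itpr2, 79.8 for Itpr3, 94.9 for Atp2a2, 66.4 for Atp2b1, 1.21 for Atp2b4, 58.1 for Stim1, 80.1 for Stim2, 60.8 for Orai1 and 50.3 for Orai3. Among protein-coding genes they were 53.4 for Itpr1, 36.7 for Itpr2, 80.9 for Itpr3, 95.1 for Atp2a2, 68.1 for Atp2b1, 13.7 for Atp2b4, 60.3 for Stim1, 81.1 for Stim2, 62.9 for Orai1 and 52.9 for Orai3. Both backgrounds leave out many low genes, which lowers every percentile. By undivided counts they were 86.0 for Itpr1, 69.9 for Itpr2, 94.1 for Itpr3, 99.2 for Atp2a2, 92.3 for Atp2b1, 40.0 for Atp2b4, 80.6 for Stim1, 82.8 for Stim2, 59.3 for Orai1 and 54.3 for Orai3.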

Other observations

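Genes that carry calcium into mitochondria, which lie close to the IP3 receptors at contacts with the ER, all had a row. The 11 listed had a median of 94.1 per kilobase and were led by the outer membrane channels Vdac1 at 1032 and Vdac2 at 598 per kilobase and by Smdt1, a subunit of the uniporter, at 230.2. The uniporter pore Mcu had a level of 88.7 per kilobase, 4.53 times that of Mcub, which encodes its inhibitory relative, at 19.6.

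Of 23 listed TRP channels, 14 had a row and 5 reached a mean of at least 100. The most abundant were Trpv4, a channel opened by stretch and osmotic change, at 279.6, Trpm7 at 178 and the lysosomal channel Mcoln1 at 148 per kilobase. Trpv4 was thus close to Pkd2, at 282. Trpc2, Trpc4, Trpc5, Trpc6, Trpc7, Trpv1, Trpv5, Trpv6 and Mcoln3 had no row, and Trpc1 had a level of 12.7 per kilobase.

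Cytosolic calcium-binding proteins were either abundant or missing. Of 11 listed, 7 had a row, with a median of 1020 per kilobase, led by Calm2 at 3307, S100a6 at 2613 and Calm3 at 1533 per kilobase. The calcium buffers Calb1, Calb2, Pvalb and S100g had no row.

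The largest means in the table were those of Gm26917 at 1052814 and Gm42418 at 300267, together 8.08% of the summed mean count, and neither identifier had a gene model in the annotation used here. The 10 calcium handling genes made up 0.111% of that sum.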
